A study of Mus musculus with 16 samples.

Results

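Cytochrome P450 genes of the Cyp2 and Cyp3 families were followed in mouse liver at 12 h after partial hepatectomy (PHx) or a sham operation. A gene was taken when it had a probe set annotated to its symbol alone (a Cyp2 symbol with a letter and a number, or a Cyp3a symbol with a number) and when its highest probe set averaged above 3 on the log2 scale over 16 arrays. Of 52 such genes measured alone, 37 met the rule, out of 30142 genes measured in all. The level was therefore part of how the genes were chosen, and the mean levels below are a description. The genes just inside the threshold were Cyp2w1 with a mean of 3.32, Cyp2j9 with 4.40 and Cyp2c39 with 4.49, and those just outside were Cyp2s1 with 2.95, Cyp2b10 with 2.81 and Cyp2c55 with 2.73. The subfamilies held 11 Cyp2c, 8 Cyp2d, 7 Cyp3a, 3 Cyp2a and 3 Cyp2j genes, and Cyp2e1, Cyp2f2, Cyp2r1, Cyp2u1 and Cyp2w1 stood alone.

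The 16 arrays formed 4 groups of 4. Ppara fl/fl mice, called wild type by the submitters, and Ppara△Hep mice, whose PPARα is disrupted in hepatocytes only, each gave a sham and a PHx group, so that other liver cells keep the receptor in every group. No label used here gives the Cre line, or the sex and age of the mice. Nor is it stated whether every array came from a different mouse, so the p-values measure only the spread between arrays, which may be technical in part.

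Cytochrome P450 enzymes are haem proteins of the endoplasmic reticulum that insert oxygen into lipophilic substrates with electrons passed on by P450 oxidoreductase. The Cyp2 and Cyp3 families carry most of the liver's oxidation of drugs, and they also act on steroids, fatty acids, bile acids and vitamin D. Their genes lie in clusters of close paralogues, and nuclear receptors such as PXR (Nr1i2) and CAR (Nr1i3), together with liver-enriched factors, are known to control them.

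The results turn in part on 6 Cyp3a genes whose mean after PHx lay below sham in Ppara fl/fl and above sham in Ppara△Hep, so the sequences before their start sites are shown first. Each is the 250 bases before the RefSeq start site in build GRCm38.p6, written along the gene. Capitals mark AGGTCA (the core hexamer bound by many nuclear receptors) or TATAAA (a sequence known from core promoters) on either strand.
Cyp3a25, chr5:146009619-146009868, minus strand: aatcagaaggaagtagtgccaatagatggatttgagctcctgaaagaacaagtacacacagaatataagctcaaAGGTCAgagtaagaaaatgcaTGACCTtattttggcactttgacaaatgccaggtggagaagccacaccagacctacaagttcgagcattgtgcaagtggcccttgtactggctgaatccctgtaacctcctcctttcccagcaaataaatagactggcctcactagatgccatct
Cyp3a59, chr5:146079008-146079257, plus strand: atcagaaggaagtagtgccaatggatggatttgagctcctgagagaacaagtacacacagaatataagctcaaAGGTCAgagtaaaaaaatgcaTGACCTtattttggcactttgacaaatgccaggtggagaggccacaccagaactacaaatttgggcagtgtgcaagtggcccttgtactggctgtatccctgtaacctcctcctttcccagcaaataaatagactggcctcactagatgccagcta
Cyp3a57, chr5:145345019-145345268, plus strand: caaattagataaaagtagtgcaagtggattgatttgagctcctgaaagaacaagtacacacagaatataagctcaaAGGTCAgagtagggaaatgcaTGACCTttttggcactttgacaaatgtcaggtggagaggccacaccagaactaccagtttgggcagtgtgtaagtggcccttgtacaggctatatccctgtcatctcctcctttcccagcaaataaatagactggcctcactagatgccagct
Cyp3a16, chr5:145469724-145469973, minus strand: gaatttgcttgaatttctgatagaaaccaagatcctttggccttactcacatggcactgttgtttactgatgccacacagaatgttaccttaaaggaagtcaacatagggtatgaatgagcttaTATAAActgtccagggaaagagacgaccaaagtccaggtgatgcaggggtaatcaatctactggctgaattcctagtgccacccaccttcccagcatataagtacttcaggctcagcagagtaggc
Cyp3a44, chr5:145805875-145806124, minus strand: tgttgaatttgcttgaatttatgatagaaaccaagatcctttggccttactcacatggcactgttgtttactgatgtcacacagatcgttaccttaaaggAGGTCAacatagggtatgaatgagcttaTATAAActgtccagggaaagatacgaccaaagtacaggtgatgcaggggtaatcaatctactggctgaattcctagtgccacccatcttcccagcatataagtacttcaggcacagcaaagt
Cyp3a11, chr5:145879855-145880104, minus strand: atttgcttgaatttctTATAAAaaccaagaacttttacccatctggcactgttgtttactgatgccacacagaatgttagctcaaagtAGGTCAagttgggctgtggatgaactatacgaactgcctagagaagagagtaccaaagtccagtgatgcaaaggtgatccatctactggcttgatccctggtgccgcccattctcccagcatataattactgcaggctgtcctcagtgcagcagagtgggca

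These promoters fell into a pair of sequence groups. Over windows of 300 bases (the 250 shown and 50 after the start), Cyp3a25 and Cyp3a59 were 95.7% identical, Cyp3a57 was 90.8% identical to Cyp3a59, and Cyp3a16 was 93.4% identical to Cyp3a44. Cyp3a11 stood further off, at 75.5% to Cyp3a16. Pairs from the same subfamily had a median identity of 55.7% and pairs from different subfamilies 49.9%. Each promoter of the Cyp3a25, Cyp3a57 and Cyp3a59 group held AGGTCA and, downstream of it, the reverse complement TGACCT. Cyp3a44 and Cyp3a11 held a single AGGTCA, and Cyp3a16 held none in this window. The marked TATAAA lay at -126 bases from the start site in Cyp3a16, -122 in Cyp3a44 and -234 in Cyp3a11. Whether it acts as a core promoter element there was not tested.

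RefSeq promoters were matched for 30 of the 37 genes, with 32 start sites. AGGTCA, searched on both strands, was in 37.5% of these windows and in 16.3% of all 32851 promoter windows of that length. The 12 member windows with it include overlapping windows of Cyp3a25 and those of its close paralogues Cyp3a57 and Cyp3a59. Such windows are not independent, so the shares here are a description. TATAAA was in 56.2% of the members' windows and 13.6% of all, and CCAAT in 50% and 37.4%. The PXR-type hexamer AGTTCA was in 15.6% and 14%. No member window held TTCNNNGAA (a STAT5 motif, in 8.3% of all windows) or the D-box TTATGTAA (0.938%). None of these motifs contains another, and the matches describe letters in a window and not bound sites.

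Within a group the arrays correlated at 0.986 to 0.997 over all genes, and no arrays held identical values. Array 3 of PHx Ppara fl/fl stood somewhat apart, with the lowest weight (0.50) that limma's array weighting gave to any array. Ppara itself was lower in Ppara△Hep than in Ppara fl/fl after sham (6.30 ± 0.18 against 6.81 ± 0.26, SD, n = 4) and after PHx (5.32 ± 0.67 against 6.49 ± 0.74), but neither difference passed limma's test (adjusted p = 0.681 and 0.326), and whether its probes lie in the deleted part is not known. Hepatocyte markers were at 10.96 to 11.09 (mean log2 level of 13 genes) in sham Ppara fl/fl and 10.91 to 10.97 after PHx, and at 10.99 to 11.07 and 10.90 to 11.00 in Ppara△Hep, with 4 and 3 of 13 lower after PHx. Kupffer cell markers were lower after PHx for 5 of 12 genes in Ppara fl/fl and 9 of 12 in Ppara△Hep. The mean level of these markers went from 5.13 to 5.66 down to 4.87 to 5.22, and from 5.33 to 5.76 down to 4.83 to 5.25. Sinusoidal endothelial markers were lower for 6 of 11 genes in each genotype. Of all genes 20.8% in Ppara fl/fl and 17.5% in Ppara△Hep were lower, and of genes with a mean above 3, 34.9% and 33.6%. These counts depended on the scaling described below. With positive controls centred, 4 Kupffer cell and 4 endothelial markers were lower in each genotype. Hepatocyte, Kupffer cell and endothelial markers called higher then numbered 2, 0 and 5 in Ppara fl/fl and 10, 2 and 4 in Ppara△Hep. The part of these cells in the results below was not tested, and in whole liver fewer cells of a type and less RNA per cell cannot be told apart.

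The scale between the arrays also moved with the operation. The array median of the 1324 positive control probe sets differed from sham by -0.26 log2 after PHx in Ppara fl/fl and by -0.46 in Ppara△Hep, whereas that over all probe sets differed by 0.11 and 0.15. The values were therefore tested as deposited and under 5 other scalings. The median change over all genes was -0.04 in Ppara fl/fl and 0.01 in Ppara△Hep as deposited, -0.15 and -0.14 with array medians subtracted, -0.14 and -0.10 after quantile normalization, and 0.22 and 0.47 when arrays were centred on the positive controls. Of all genes called in Ppara fl/fl, 36.5% were higher after PHx as deposited, 14.8% with medians subtracted, 15.8% after quantile normalization, 91% with positive controls centred and 90% when arrays were centred on genes with a mean above 8. The same shares in Ppara△Hep were 45.8%, 13.9%, 19.7%, 97.1% and 83.9%. Changes are given as deposited, and the scalings that end or turn a call are named beside it. The centrings on positive controls and on genes with a mean above 8 are called both centrings below.

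After PHx the P450 genes were lower in Ppara fl/fl livers. With limma over all genes (adjusted p below 0.05), 26 of the 37 genes fell and none rose, a share of 70.3%, while 20.8% of all genes fell and 11.9% rose. Among genes with a mean above 6, a level most members exceed, 38.6% fell. The median change of the members was -0.41, beside -0.04 over all genes and -0.19 over genes with a mean above 6, and each of the 37 estimates was below zero as deposited. The 4 PHx arrays lay wholly below the 4 sham arrays for 26 members, which is 70.3%, against 19.9% of all genes. Without array 3 of PHx Ppara fl/fl, 20 members fell.

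In Ppara△Hep livers 14 of 37 members fell and none rose, a share of 37.8%. Of all genes there, 17.5% fell and 14.8% rose, and the share that fell was 33.6% of genes with a mean above 3 and 38% of those with a mean above 6, close to that of the members. The members' median change was -0.24, beside 0.01 over all genes and -0.21 over genes with a mean above 6, and 10 of the estimates were above zero. Of the genes that fell, 12 did so in both genotypes: Cyp2c54, Cyp2d10, Cyp2d13, Cyp2d26, Cyp2d34, Cyp2d40, Cyp2e1, Cyp2f2, Cyp2j5, Cyp2j6, Cyp2r1 and Cyp2u1. A further 14 passed in Ppara fl/fl and did not pass in Ppara△Hep, and Cyp2d12 and Cyp2d22 passed in Ppara△Hep and did not pass in Ppara fl/fl. The test of the difference itself is given after the subfamilies.

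**Figure D1:**
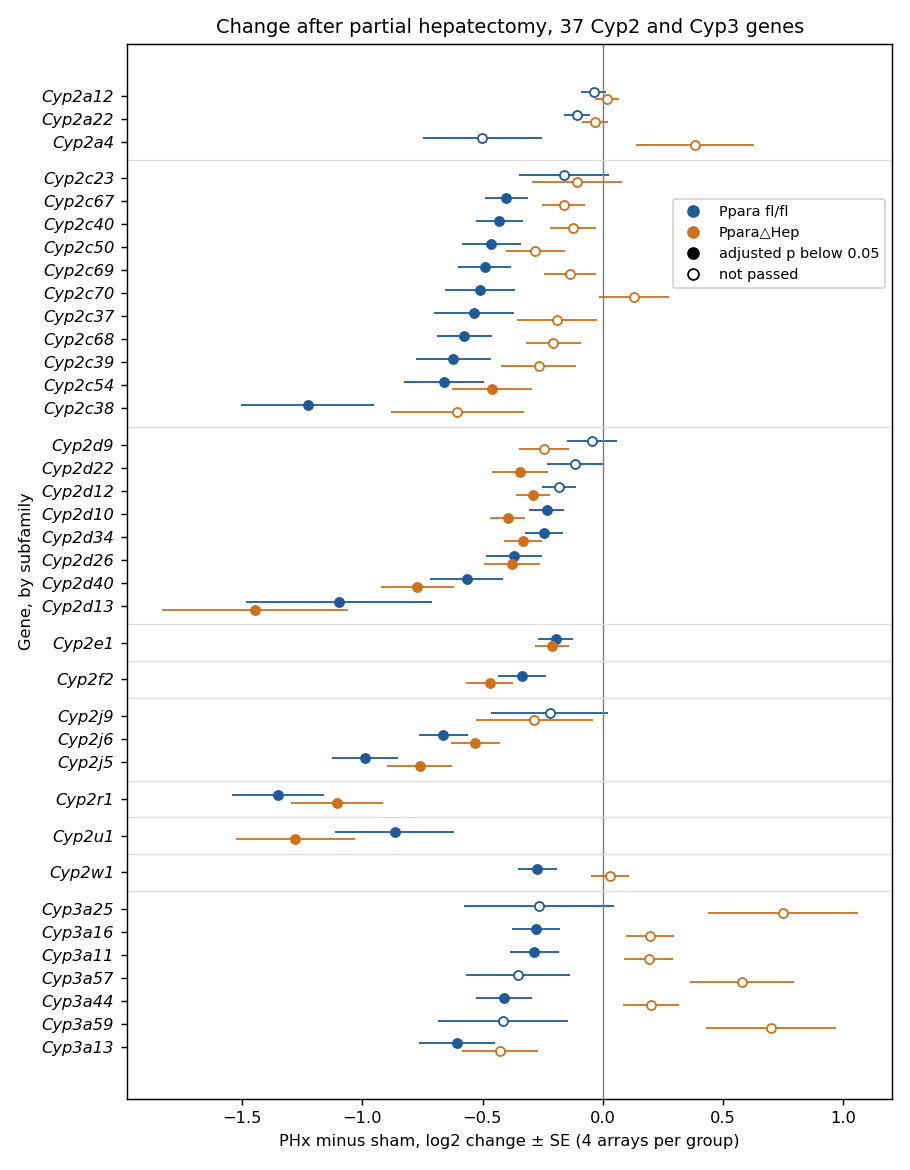
Change from sham to PHx on the log2 scale for the 37 Cyp2 and Cyp3 genes, grouped by subfamily, in Ppara fl/fl (blue) and Ppara△Hep (orange). Points are limma estimates with their standard error from 4 arrays per group, filled where the adjusted p was below 0.05. As deposited, all blue points lie below zero, and 6 of the 7 Cyp3a genes have their orange point above zero.

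Those counts depended on the scaling. In Ppara fl/fl, 17 members fell after cyclic loess normalization, 8 when arrays were centred on genes with a mean above 8, and 5 when they were centred on the positive controls. In Ppara△Hep the same settings gave 10, 8 and 3 that fell, and 3, 7 and 15 that rose, whereas subtraction of array medians gave 24 that fell. Under all 6 scalings Cyp2c38, Cyp2j5, Cyp2j6, Cyp2r1 and Cyp2u1 fell in Ppara fl/fl, and Cyp2d13, Cyp2r1 and Cyp2u1 fell in Ppara△Hep. As to sign, 8 members were below zero in both genotypes under every scaling. Another 7 (Cyp2a4 and the 6 Cyp3a genes shown above) were below zero in Ppara fl/fl and above it in Ppara△Hep, also under every scaling. None of these 7 was called in Ppara fl/fl under cyclic loess or either centring. In Ppara fl/fl, Cyp3a25 changed by -0.26 as deposited, like the positive controls, so its estimate was near zero with those centred.

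**Figure D2:**
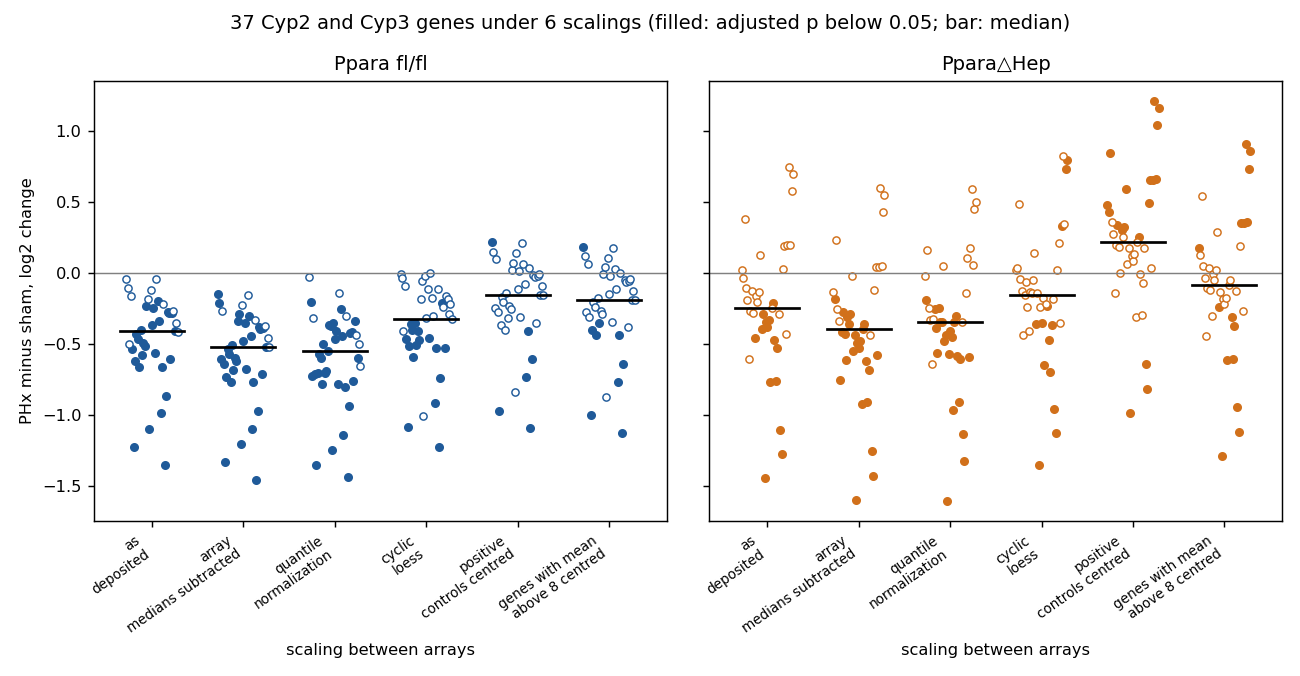
Change from sham to PHx (log2) of the 37 genes under the deposited scale and 5 other scalings between arrays, in Ppara fl/fl (left) and Ppara△Hep (right). Filled points had an adjusted p below 0.05 and bars are medians; the median in Ppara△Hep is -0.24 as deposited and 0.22 with the positive controls centred.

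Cyp2r1 and Cyp2u1 were the members that fell in both genotypes under every scaling. Cyp2r1 is the main vitamin D hydroxylase of the liver. Its level in sham Ppara fl/fl was 5.36, 5.83, 5.77 and 5.88, and after PHx 4.52, 4.07, 4.22 and 4.61. In sham Ppara△Hep it was 5.72, 5.64, 6.02 and 5.81, and after PHx 4.79, 4.99, 4.96 and 4.02. Each PHx array was below each sham array in both genotypes. The change was -1.35 ± 0.19 (SE) in Ppara fl/fl, a 2.55-fold fall (limma, adjusted p = 1.08e-04), and -1.10 ± 0.19 in Ppara△Hep (adjusted p = 5.32e-04).

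Cyp2u1 hydroxylates long-chain fatty acids. It was at 5.25, 5.94, 5.60 and 5.28 in sham Ppara fl/fl and at 4.62, 4.32, 4.60 and 5.06 after PHx. In Ppara△Hep it was at 5.76, 6.06, 6.25 and 6.02 after sham and at 5.33, 5.17, 4.37 and 4.11 after PHx. The groups did not overlap in either genotype, and the PHx arrays of Ppara△Hep spread more widely than the sham arrays. The fall was -0.87 ± 0.25 in Ppara fl/fl (limma, adjusted p = 0.0153) and -1.28 ± 0.25 in Ppara△Hep (adjusted p = 0.00123).

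The Cyp2j genes encode epoxygenases of arachidonic acid, and Cyp2j5 is abundant in liver and kidney. Cyp2j5 was at 9.59, 9.66, 9.58 and 9.77 in sham Ppara fl/fl and at 8.80, 8.51, 8.35 and 8.99 after PHx. The Ppara△Hep arrays were at 9.43, 9.30, 9.43 and 9.49 and then at 8.83, 8.71, 8.24 and 8.82. Every PHx array was below every sham array, and the changes were -0.99 ± 0.14 (limma, adjusted p = 8.54e-05) and -0.76 ± 0.14 (adjusted p = 7.04e-04). Cyp2j6 also fell in both, by -0.66 ± 0.10 and -0.53 ± 0.10, while Cyp2j9 had changes of -0.22 and -0.28 that did not pass. With the positive controls centred, the falls of Cyp2j5 and Cyp2j6 in Ppara△Hep were no longer called.

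**Figure D3:**
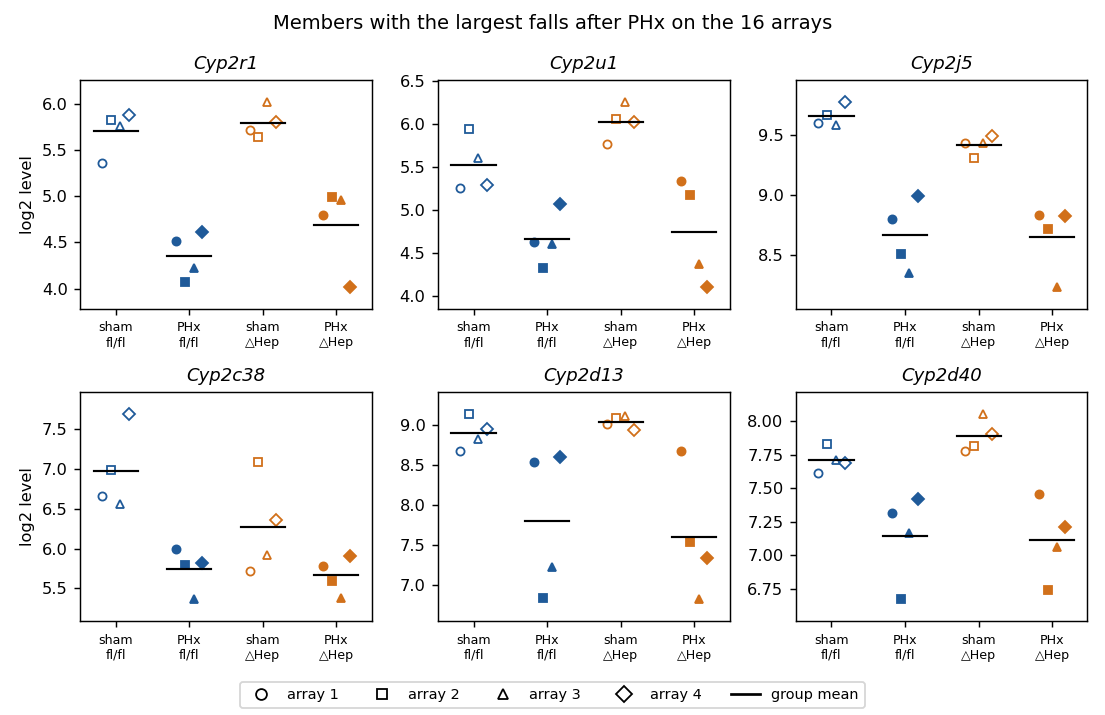
Log2 level on each of the 16 arrays of the 6 genes with the largest falls after PHx, with symbols for arrays 1 to 4 and bars for group means. Cyp2r1, Cyp2u1, Cyp2j5, Cyp2d13 and Cyp2d40 separate PHx from sham in both genotypes. The PHx arrays of Cyp2d13 spread widely, at 8.54 and 8.61 beside 6.83 and 7.23 in Ppara fl/fl.

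The Cyp2c subfamily, whose members oxidise drugs, arachidonic acid and bile acids, fell in Ppara fl/fl for 10 of 11 genes (all except Cyp2c23), with a median of -0.51, where 20.8% of all genes and 38.6% of genes with a mean above 6 fell. All 10 calls held under cyclic loess, 4 held with genes of mean above 8 centred (Cyp2c38, Cyp2c39, Cyp2c54 and Cyp2c68), and 1 held with positive controls centred (Cyp2c38). In Ppara△Hep 1 of 11 passed, Cyp2c54 (-0.46 ± 0.17, limma, adjusted p = 0.0457), and the median was -0.19. That call was lost under cyclic loess, under both centrings and in 9 of the 16 fits that each left out an array, with an adjusted p of up to 0.146. With array medians subtracted 8 of the 11 fell in Ppara△Hep, after quantile normalization 6 fell, and with positive controls centred 4 rose (Cyp2c40, Cyp2c67, Cyp2c69 and Cyp2c70). The difference between the genotypes was above zero for all 11 Cyp2c genes, but it did not pass for any.

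Cyp2c38, which metabolises arachidonic acid, had the largest Cyp2c fall. It was at 6.66, 6.98, 6.56 and 7.69 in sham Ppara fl/fl and at 5.99, 5.80, 5.37 and 5.82 after PHx, without overlap. In Ppara△Hep it was at 5.72, 7.09, 5.91 and 6.36 after sham and at 5.78, 5.59, 5.38 and 5.90 after PHx, and these overlapped. The change was -1.23 ± 0.28 in Ppara fl/fl (limma, adjusted p = 0.00392) and -0.61 ± 0.28 in Ppara△Hep (adjusted p = 0.11, and 0.0356 with array medians subtracted), and the sham groups themselves differed by -0.70 ± 0.28 (adjusted p = 0.481).

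Cyp2c70 makes muricholic acids, the bile acids typical of mice, and was the highest Cyp2c gene on its own probe set. Its levels in Ppara fl/fl were 10.79, 10.66, 10.56 and 10.53 after sham and 9.74, 10.52, 10.38 and 9.86 after PHx. In Ppara△Hep they were 10.21, 10.44, 10.44 and 10.61 after sham and 10.52, 10.41, 10.67 and 10.62 after PHx. PHx arrays 1 and 4 of Ppara fl/fl were the lowest of all 16, and the Ppara△Hep groups overlapped. It fell by -0.51 ± 0.15 in Ppara fl/fl (limma, adjusted p = 0.0152), and the change in Ppara△Hep was 0.13 ± 0.15. The fall was lost under both centrings, and with positive controls centred the change in Ppara△Hep passed as a rise of 0.59.

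Genes of the Cyp2d subfamily fell in both genotypes. In Ppara fl/fl 5 of 8 fell, with a median of -0.24, and in Ppara△Hep 7 of 8 fell, with a median of -0.36, where 38.6% and 38% of genes with a mean above 6 fell. The exception in Ppara△Hep was Cyp2d9, a male-biased steroid hydroxylase, at -0.24 ± 0.10 (limma, adjusted p = 0.084), and in Ppara fl/fl its change was -0.04 ± 0.10. These counts depended on the scale. In Ppara fl/fl 1 Cyp2d gene, Cyp2d40, kept its call under cyclic loess, and none kept it under either centring. In Ppara△Hep 4 fell under cyclic loess (Cyp2d10, Cyp2d13, Cyp2d26 and Cyp2d40), 3 with genes of mean above 8 centred (Cyp2d10, Cyp2d13 and Cyp2d40) and 1 with positive controls centred (Cyp2d13), whereas all 8 fell with array medians subtracted or after quantile normalization.

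Cyp2d40 was at 7.61, 7.83, 7.71 and 7.68 in sham Ppara fl/fl and at 7.32, 6.67, 7.16 and 7.42 after PHx. The Ppara△Hep arrays were at 7.78, 7.82, 8.05 and 7.91 after sham and at 7.46, 6.74, 7.06 and 7.21 after PHx. The groups did not overlap, and array 2 was the lowest PHx array in each genotype. The falls were -0.57 ± 0.15 (limma, adjusted p = 0.0113) and -0.77 ± 0.15 (adjusted p = 0.00147). The first was lost under both centrings and the other with positive controls centred.

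Cyp2d13 is annotated by RefSeq as a transcribed pseudogene. Its sham levels were 8.68, 9.14, 8.83 and 8.95 in Ppara fl/fl and 9.01, 9.10, 9.12 and 8.94 in Ppara△Hep. After PHx they were 8.54, 6.83, 7.23 and 8.61 in Ppara fl/fl and 8.68, 7.54, 6.82 and 7.33 in Ppara△Hep. All PHx arrays were below the sham arrays, but they fell by very different amounts. The change was -1.10 ± 0.39 in Ppara fl/fl (limma, adjusted p = 0.0414) and -1.45 ± 0.39 in Ppara△Hep (adjusted p = 0.0104). The Ppara fl/fl call was lost under cyclic loess, under both centrings and in 10 of the 16 fits that left out an array, and without PHx Ppara fl/fl array 2 the adjusted p was 0.134.

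Cyp2e1, which oxidises ethanol and acetaminophen in pericentral hepatocytes, and Cyp2f2, a periportal enzyme known for naphthalene, changed by small amounts. Cyp2e1 was at 11.29, 11.33, 11.30 and 11.42 in sham Ppara fl/fl and at 11.23, 11.09, 11.12 and 11.11 after PHx. In Ppara△Hep it was at 11.42, 11.40, 11.34 and 11.26 and then at 11.33, 11.01, 10.99 and 11.26. The Ppara fl/fl groups were apart and the Ppara△Hep groups overlapped, with changes of -0.20 ± 0.07 (limma, adjusted p = 0.0497) and -0.21 ± 0.07 (adjusted p = 0.0368). The first of these calls was lost in 11 of the 16 fits that left out an array, under cyclic loess and under both centrings. The other was lost in 5 such fits and with genes of mean above 8 centred, and with positive controls centred it turned into a rise of 0.25 (limma, adjusted p = 0.0389). Cyp2f2 fell from 10.87 ± 0.10 to 10.53 ± 0.07 (SD, n = 4) in Ppara fl/fl (limma, adjusted p = 0.0175) and from 10.95 ± 0.10 to 10.48 ± 0.25 in Ppara△Hep (adjusted p = 0.00226). The Cyp2f2 call in Ppara fl/fl was lost under cyclic loess, under both centrings and without sham Ppara fl/fl array 2, and that in Ppara△Hep with positive controls centred.

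Among the Cyp2a genes, which hydroxylate steroids and bile acids, none passed in either genotype. Cyp2a12 had changes of -0.04 ± 0.05 in Ppara fl/fl and 0.02 ± 0.05 in Ppara△Hep. Under other scalings it was called lower in Ppara fl/fl with array medians subtracted and called higher in both genotypes under both centrings. Cyp2a22 had changes of -0.11 ± 0.05 and -0.03 ± 0.05, called lower in both genotypes with array medians subtracted or after quantile normalization, and called higher in Ppara△Hep with positive controls centred. Cyp2w1, the weakest member, went from 3.49 ± 0.14 to 3.21 ± 0.08 (SD, n = 4) in Ppara fl/fl (-0.27 ± 0.08, limma, adjusted p = 0.0176) and from 3.27 ± 0.10 to 3.30 ± 0.13 in Ppara△Hep. Its fall was lost under both centrings and without sham Ppara fl/fl array 1 or 3 or PHx Ppara fl/fl array 3, and with positive controls centred it was called higher in Ppara△Hep.

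Cyp2a4, a female-biased steroid hydroxylase, was at 7.78, 8.24, 7.84 and 8.23 in sham Ppara fl/fl and at 7.07, 7.57, 8.47 and 6.98 after PHx. The Ppara△Hep arrays were at 8.20, 8.34, 8.42 and 8.27 after sham and at 8.47, 8.65, 8.63 and 9.02 after PHx. Array 3 of PHx Ppara fl/fl was above every sham array while the other PHx arrays were below them, and in Ppara△Hep all PHx arrays were above all sham arrays. After PHx, Ppara△Hep was higher by 1.17 ± 0.25 (2.25-fold, limma, adjusted p = 0.113). Without array 3 of PHx Ppara fl/fl that difference was 1.49 with an adjusted p of 7.08e-04, and the change in Ppara fl/fl was -0.82 with an adjusted p of 0.00198. Of the 16 fits that left out an array, these calls were made in 1. It left out the array whose level lay against the difference. The change in Ppara fl/fl also passed with array medians subtracted, after quantile normalization and with array weights, and that in Ppara△Hep passed with positive controls centred. The genotype difference passed with array weights (1.29, limma, adjusted p = 0.0287) and under none of the other scalings. Another probe set is annotated to both Cyp2a4 and Cyp2a5, and whether the Cyp2a4 probe set used here also reads Cyp2a5 was not tested.

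The Cyp3a genes encode the main drug and steroid hydroxylases of mouse liver. In Ppara fl/fl 4 of 7 fell (Cyp3a11, Cyp3a13, Cyp3a16 and Cyp3a44), with a median of -0.35, and in Ppara△Hep none passed, with a median of 0.20 and 6 of 7 estimates above zero. The share of genes with a mean above 6 that fell was 38.6% in Ppara fl/fl. Unadjusted p-values were below 0.05 for 4 of the 7 in Ppara△Hep (57.1%), beside 42.3% of all genes. Among genes with a mean above 6 the share was 54%, close to that of the Cyp3a genes. The 4 were Cyp3a25, Cyp3a57 and Cyp3a59 above zero and Cyp3a13 below. Cyp3a13, whose estimate was below zero in both genotypes, went from 9.23 ± 0.16 to 8.62 ± 0.32 (SD, n = 4) in Ppara fl/fl and from 9.10 ± 0.10 to 8.67 ± 0.32 in Ppara△Hep. Its fall in Ppara fl/fl was lost under both centrings, and its change in Ppara△Hep passed as a fall with array medians subtracted and after quantile normalization.

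Cyp3a11, the most abundant Cyp3a gene of adult mouse liver and a known PXR target, was at 10.32, 10.45, 10.23 and 10.58 in sham Ppara fl/fl and at 9.97, 10.20, 10.11 and 10.16 after PHx. In Ppara△Hep it was at 10.01, 10.43, 10.12 and 10.26 after sham and at 10.26, 10.27, 10.45 and 10.60 after PHx. The groups were apart in Ppara fl/fl and overlapped in Ppara△Hep, with changes of -0.28 ± 0.10 (limma, adjusted p = 0.0441) and 0.19 ± 0.10 (adjusted p = 0.168).

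Cyp3a44 was at 7.10, 7.19, 6.97 and 7.32 in sham Ppara fl/fl and at 6.66, 6.87, 6.59 and 6.81 after PHx. The Ppara△Hep arrays were at 6.74, 7.15, 6.71 and 6.93 after sham and at 6.91, 6.94, 7.10 and 7.39 after PHx. Its changes were -0.41 ± 0.12 (limma, adjusted p = 0.0152) and 0.20 ± 0.12 (adjusted p = 0.21). Cyp3a16, known as a fetal form, was at 4.97 ± 0.13 and 4.69 ± 0.11 (SD, n = 4) in Ppara fl/fl and at 4.77 ± 0.16 and 4.96 ± 0.18 in Ppara△Hep, with changes of -0.28 ± 0.10 (limma, adjusted p = 0.0439) and 0.20 ± 0.10 (adjusted p = 0.15). In sham Ppara fl/fl, array 4 was the highest and array 3 the lowest for all 3 genes, and in PHx Ppara△Hep array 4 was the highest for all 3. Their sequences are alike, and whether their probe sets read each other's transcripts was not tested.

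The falls of Cyp3a11, Cyp3a16 and Cyp3a44 in Ppara fl/fl were lost under cyclic loess (adjusted p = 0.111, 0.263 and 0.105) and under both centrings. Under both centrings all 3 were called higher in Ppara△Hep instead, by 0.66 each with positive controls centred, and Cyp3a16 was also called higher there under cyclic loess (0.33, adjusted p = 0.0285). The call of Cyp3a11 was lost in 10 of the 16 fits that left out an array (adjusted p up to 0.13) and that of Cyp3a16 in 8 (up to 0.126), whereas that of Cyp3a44 was kept in all 16.

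Cyp3a25, Cyp3a57 and Cyp3a59 form the group with the alike promoters. Cyp3a25 was at 7.96, 9.19, 8.44 and 8.78 in sham Ppara fl/fl and at 7.58, 7.79, 9.23 and 8.72 after PHx. In Ppara△Hep it was at 8.82, 8.54, 8.66 and 8.26 after sham and at 9.31, 9.34, 9.43 and 9.20 after PHx. The Ppara△Hep groups did not overlap, and the PHx arrays lay within a narrow range, while in Ppara fl/fl PHx arrays 1 and 2 were low and arrays 3 and 4 lay within the upper part of the sham range or above it.

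Cyp3a59 followed the same order of arrays in every group except PHx Ppara△Hep. It was at 7.55, 8.79, 8.02 and 8.27 in sham Ppara fl/fl and 7.14, 7.31, 8.34 and 8.19 after PHx. The Ppara△Hep arrays were at 8.39, 8.15, 8.16 and 7.75 after sham and at 8.79, 8.90, 8.86 and 8.71 after PHx. Cyp3a57 was at 6.68 ± 0.35 and 6.33 ± 0.53 (SD, n = 4) in Ppara fl/fl and at 6.57 ± 0.21 and 7.15 ± 0.08 in Ppara△Hep. PHx arrays 1 and 2 of Ppara fl/fl were low for all 3 genes, and in Ppara△Hep the groups did not overlap for any of them. Whether the probe sets of these 3 genes read each other's transcripts was not tested.

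As deposited, none of these 3 genes passed in Ppara fl/fl. In Ppara△Hep the changes were 0.75 ± 0.31 for Cyp3a25, 0.58 ± 0.22 for Cyp3a57 and 0.70 ± 0.27 for Cyp3a59 (limma, adjusted p = 0.0781, 0.0528 and 0.0603). Where only the groups compared entered the fit, the same changes passed at 0.00205, 0.00423 and 0.00387, and the change of Cyp2a4 passed at 0.032. Cyp3a57 and Cyp3a59 also passed when genes with a mean below 3 were left out (adjusted p = 0.0428 and 0.0485), under cyclic loess (0.0216 and 0.0441), and all 3 genes passed under both centrings. None of the 3 passed with array medians subtracted, after quantile normalization, with array weights or with the other variance model. Of the 16 fits that left out an array, Cyp3a57 passed in 4, without sham Ppara fl/fl array 2 (0.0407) or PHx Ppara fl/fl array 1 (0.0303), 3 (0.029) or 4 (0.0493). Cyp3a59 passed in 4, without sham Ppara fl/fl array 1 (0.0439) or 2 (0.0419) or PHx Ppara fl/fl array 1 (0.0437) or 3 (0.0418). Cyp3a25 passed in 1, without PHx Ppara fl/fl array 3 (0.0349). These left-out arrays were all of Ppara fl/fl and do not enter the change in Ppara△Hep. Its estimate stayed the same, and the spread shared by the groups changed. No fit that left out a Ppara△Hep array called any of the 3. Over all members, 4 had their PHx arrays wholly above sham in Ppara△Hep (Cyp2a4, Cyp3a25, Cyp3a57 and Cyp3a59), beside 15.8% of all genes and 5.81% of genes with a mean above 6.

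**Figure D4:**
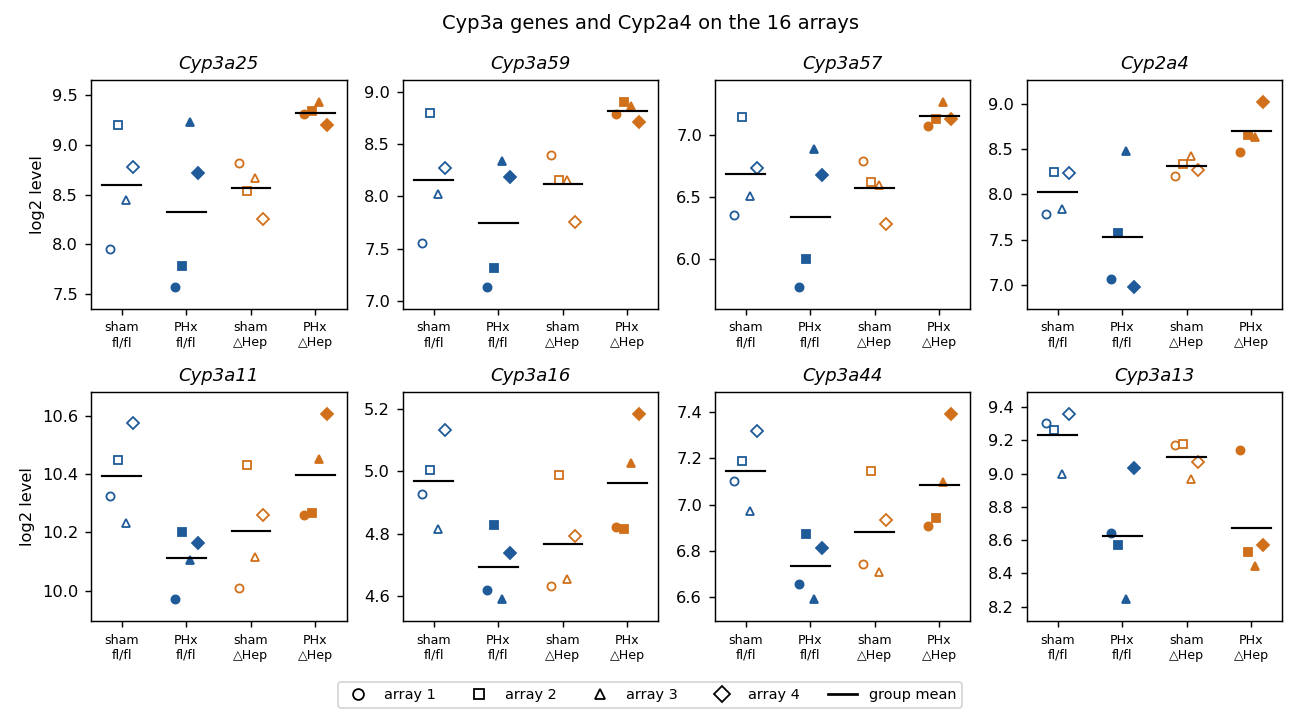
Log2 level of the Cyp3a genes and Cyp2a4 on each of the 16 arrays, with symbols for arrays 1 to 4 and bars for group means. Cyp3a25 in PHx Ppara△Hep spans 9.20 to 9.43, above all its sham arrays, while in PHx Ppara fl/fl it spans 7.58 to 9.23.

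Whether PHx acted differently in the genotypes was tested as the difference between the changes (Ppara△Hep minus Ppara fl/fl). No member passed, and 0% of all genes passed in either direction. At an unadjusted p below 0.05 there were 12 members (32.4%), against 11.3% of all genes and 7.08% of genes with a mean above 6, and the smallest adjusted p was 0.327. Of these 12, 6 were Cyp3a genes. The difference was 0.61 for Cyp3a44 (95% interval 0.26 to 0.97), 0.48 for Cyp3a11 (0.17 to 0.78), 0.47 for Cyp3a16 (0.17 to 0.77), 0.93 for Cyp3a57 (0.28 to 1.58), 1.12 for Cyp3a59 (0.30 to 1.93) and 1.02 for Cyp3a25 (0.08 to 1.95). For Cyp3a13 it was 0.18 (-0.30 to 0.66).

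By subfamily, the difference was above zero for 7 of 7 Cyp3a and 11 of 11 Cyp2c genes and below zero for 8 of 8 Cyp2d genes as deposited. For Cyp3a the sign held under all 6 scalings, and so it did for 10 of the 11 Cyp2c genes, but for Cyp2d it held only for Cyp2d13 and Cyp2d22. The genes within a subfamily share sequence and arrays, so these counts are not counts of independent results.

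The genotypes were also compared within each operation. After sham, no member passed (adjusted p by limma), beside 0.00332% of all genes higher and 0.00995% lower in Ppara△Hep, and 4 members (10.8%) had an unadjusted p below 0.05, against 9.26% of all genes. Those 4 were Cyp2w1 at -0.22, Cyp2c38 at -0.70, Cyp3a44 at -0.26 and Cyp2d10 at 0.16, and the smallest adjusted p was 0.458. After PHx, no member passed either, beside 0% of all genes higher and 0.143% lower. There 8 members (21.6%) had an unadjusted p below 0.05, against 7.47% of all genes and 10.3% of genes with a mean above 6, and all 8 were higher in Ppara△Hep: Cyp2a4 by 1.17, Cyp3a59 by 1.07, Cyp3a25 by 0.99, Cyp3a57 by 0.82, Cyp2c70 by 0.43, Cyp3a44 by 0.35, Cyp3a11 by 0.29 and Cyp3a16 by 0.27. The Ppara△Hep arrays lay wholly above the Ppara fl/fl arrays for 4 of these, Cyp3a11, Cyp3a44, Cyp3a57 and Cyp3a59, beside 2.41% of all genes. The comparisons of genotype and of operation share arrays, so these values are not independent of those above.

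The proteins that serve P450 enzymes were counted beside them. Of genes with a mean above 3, 34.9% fell in Ppara fl/fl and 33.6% in Ppara△Hep. The lists here and below had no level filter, and of all genes 20.8% and 17.5% fell. Of 11 measured genes for electron donors and haem supply, 6 fell and 1 rose in Ppara fl/fl, and 7 fell and 1 rose in Ppara△Hep, which put the falls at 54.5% and 63.6%. With positive controls centred, 3 fell in Ppara fl/fl and 1 in Ppara△Hep. The gene that rose was Alas1, the rate-limiting enzyme of haem synthesis, at 1.23 ± 0.29 (limma, adjusted p = 0.00509) and 0.81 ± 0.29 (adjusted p = 0.0447), and the latter was lost with array medians subtracted, after quantile normalization and in 9 of 16 fits that left out an array. Among those that fell were Cyb5b, an outer mitochondrial cytochrome b5, at -1.12 and -1.26, and Fech, which inserts iron into haem, at -0.61 and -0.45, the latter lost under cyclic loess and with positive controls centred.

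Of 25 measured receptors and factors that control P450 genes, 7 fell in Ppara fl/fl (28%, below the 34.9% of genes with a mean above 3) and 12 in Ppara△Hep (48%, against 33.6%), and none rose as deposited. With positive controls centred, 4 fell and 3 rose in Ppara fl/fl, and 4 fell and 8 rose in Ppara△Hep. Cebpa, a liver-enriched activator, fell by -1.33 ± 0.24 and -1.53 ± 0.24 (limma, adjusted p = 7.03e-04 and 2.02e-04), under every scaling and without any single array. Onecut1 (HNF6) fell in Ppara△Hep by -1.68 ± 0.50 (adjusted p = 0.0176 by limma), a call lost without sham Ppara△Hep array 1 (0.0539) or PHx Ppara△Hep array 3 (0.0592). Nr0b2, the repressor SHP, fell in Ppara fl/fl by -2.05 ± 0.73 (adjusted p = 0.0431), where its PHx arrays were at 3.25, 3.13, 7.19 and 3.96 and array 3 was above all sham arrays, and that call was lost under cyclic loess and in 10 of 16 fits that left out an array.

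PXR and CAR are named here for their known role, after their values were seen. Nr1i2 did not pass (-0.15 ± 0.35 in Ppara fl/fl and 0.39 ± 0.35 in Ppara△Hep). Nr1i3 was at 8.29, 6.57, 5.08 and 8.20 after PHx in Ppara fl/fl and at 7.86, 7.26, 5.47 and 5.18 in Ppara△Hep, against sham levels of 6.77 to 7.23 and 7.29 to 7.93. Its PHx arrays lay on both sides of the sham arrays in Ppara fl/fl, and its changes were -0.02 ± 0.65 and -1.14 ± 0.65 (limma, adjusted p = 0.987 and 0.2). Cyp2b10, the best known CAR target, was below the level threshold, and it rose by 1.32 ± 0.40 in Ppara△Hep (adjusted p = 0.0201 by limma) beside 0.46 ± 0.40 in Ppara fl/fl. That call was lost without sham Ppara△Hep array 3 or PHx Ppara△Hep array 3.

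Other liver genes of related function were counted in the same way. Of 20 measured P450 genes from other families, 7 fell in Ppara fl/fl (35%) and 6 in Ppara△Hep (30%), shares near the 34.9% and 33.6% of genes with a mean above 3, with Cyp51 of sterol synthesis at -1.56 and -1.42. Cyp7a1 and Cyp8b1, which act in bile acid synthesis, fell in Ppara△Hep by -5.29 ± 1.23 and -4.00 ± 0.95 (limma, adjusted p = 0.00437 and 0.00485) and were at -1.90 ± 1.23 and -2.50 ± 0.95 in Ppara fl/fl without passing. Of 35 conjugating enzymes, 11 fell in each genotype (31.4%), also near those shares, and 4 and 5 rose, among them the oestrogen sulphotransferase Sult1e1 at 2.68 and 3.54, the former lost in 6 of 16 fits that left out an array. Of 22 other oxidases, dehydrogenases and carboxylesterases, 13 (59.1%) and 11 (50%) fell, with the alcohol dehydrogenase Adh4 at -2.61 and -2.35. Of 18 sex-biased liver genes, 13 (72.2%) and 8 (44.4%) fell, with the male-biased Hsd3b5 at -4.02 and -3.68. Of 16 zonation genes, 7 (43.8%) and 8 (50%) fell, with the pericentral Lgr5 at -1.32 and -1.47. With the positive controls centred, the other P450 genes held 5 falls in Ppara fl/fl and 4 in Ppara△Hep. The falls numbered 6 and 0 among the conjugating enzymes, and 2 and 1 among the oxidases, dehydrogenases and carboxylesterases. They numbered 5 and 2 among the sex-biased genes and 5 and 3 among the zonation genes. The genes that rose in Ppara△Hep then numbered 4, 18, 2, 8 and 3 in the same order.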

How the data were processed

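Liver RNA was hybridised to Affymetrix arrays, and the authors deposited log2 values per probe set; RMA is named in the submitters' processing notes. Its version and the annotation's genome build are not given in the labels used here. Deposited log2 values ran from 0.07 to 12.11 over 72688 probe sets, of which 30604 were annotated to 1 symbol, 2146 to several and 39938 to none listed. Outdated symbols (821) were updated through RefSeq, and the probe set of highest mean stood for each of 30142 genes. Probe sets shared by several genes were left out (3 for this family: Cyp2a4/Cyp2a5, Cyp2c29/Cyp2c53-ps and Cyp2d11 with a microRNA). Every member had 1 probe set.

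All 16 arrays entered limma 3.58.1 (lmFit, eBayes; R 4.3.3) with 1 mean per group, and p-values were adjusted by Benjamini-Hochberg over all genes. The limma fit was tested on simulated data that held no shift of scale between arrays. The scalings, the choice of probe sets and the promoter matches were not tested in this way. Alternatives changed the scaling between arrays, the probe set rule, the filter on low values, the variance model, the level threshold and the arrays. Centring on positive controls and on genes with a mean above 8 was added after the data were seen. Values per array are given for the highest gene of each subfamily, for the 4 largest changes past the threshold in each comparison and, where none passed, the 4 of smallest p; listed genes are the 2 of largest change in each direction. Members and lists were chosen with earlier results of these data known. The number of arrays limits the precision.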

Additional observations from a re-analysis of the deposited data

Results flagged for a closer look

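Of 80 groups of 4 arrays (20 named genes in 4 groups), 3 held an array far from the other 3 of its group, where chance gives about 1 in 20 groups. Cyp2a12 was at 10.68 on array 2 of sham Ppara△Hep, below the other arrays at 10.77 to 10.78. Cyp2d10 was at 9.61 and Cyp2d9 at 9.91 on array 2 of PHx Ppara fl/fl, below arrays at 9.81 to 9.83 and 10.20 to 10.24. The same array held the lowest level of its group for Cyp2d13 (6.83) and Cyp2d40 (6.67).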

How the results depend on the processing

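Scaling between arrays changed the counts most. In Ppara fl/fl, 26 members fell as deposited, 17 under cyclic loess, 5 with positive controls centred and 8 with genes of mean above 8 centred, and 1 rose under each of these centrings. In Ppara△Hep, 14 fell as deposited, 24 with array medians subtracted, 22 after quantile normalization, 3 with positive controls centred and 8 with genes of mean above 8 centred. The members that rose there numbered 0 as deposited, 3 under cyclic loess, 15 and 7 under the centrings, 2 among genes with a mean above 3, 4 with only the compared groups in the fit and 1 with a level threshold of 2. After PHx, array weights made 1 member higher in Ppara△Hep. The causes were not tested, apart from the fewer genes or arrays in those fits.

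Without any 1 array, 18 to 27 members fell in Ppara fl/fl, 10 to 16 fell and 0 to 3 rose in Ppara△Hep, and 0 to 1 was higher in Ppara△Hep after PHx; the other counts stayed at 0. Of the falls, 16 of 26 and 10 of 14 were called in each of these fits.

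Some printed changes after PHx turned sign. With positive controls centred, the change in Ppara fl/fl was 0.22 for Cyp2a12, 0.15 for Cyp2a22, 0.025 for Cyp2d10, 0.21 for Cyp2d9, 0.063 for Cyp2e1 and 0.038 for Cyp2j9, and in Ppara△Hep 0.43 for Cyp2a22, 0.0033 for Cyp2c54, 0.068 for Cyp2d10, 0.22 for Cyp2d9, 0.25 for Cyp2e1, 0.18 for Cyp2j9 and 0.037 for Cyp3a13. With genes of mean above 8 centred, it was 0.19 for Cyp2a12, 0.12 for Cyp2a22, 0.18 for Cyp2d9, 0.029 for Cyp2e1 and 0.0043 for Cyp2j9 in Ppara fl/fl and 0.13 for Cyp2a22 in Ppara△Hep. Cyclic loess gave 0.0033 for Cyp2d9 in Ppara fl/fl and 0.038 for Cyp2a22 in Ppara△Hep. In Ppara△Hep, subtraction of array medians gave -0.13 for Cyp2a12, -0.019 for Cyp2c70 and -0.12 for Cyp2w1, quantile normalization -0.020 for Cyp2a12 and -0.14 for Cyp2w1, and array weights -0.0023 for Cyp2w1. Without any 1 array, Cyp2a12 ranged from -0.0057 to 0.034 and Cyp2w1 from -0.026 to 0.077 in Ppara△Hep, and Cyp2d9 from -0.078 to 0.034 in Ppara fl/fl. Of these, the call that turned into one in the other direction was that of Cyp2e1 in Ppara△Hep with positive controls centred.

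No paired analysis was possible because the labels give the arrays no replicate numbers shared between groups.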
